A study of Mus musculus with 9 samples.

Results

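The genes described here encode the protein subunits of the mitochondrial respiratory chain and of ATP synthase. They were taken by symbol from a table of read counts per gene: Nduf subunits of complex I, Sdh subunits of complex II, Uqcr subunits of complex III, Cox4 to Cox8 subunits of complex IV and Atp5 subunits of ATP synthase, without pseudogene rows and with a mean of at least 10 counts over the libraries used. Of 84 rows with such symbols 80 passed, out of 13000 genes tested and 24394 in the table. By symbol, the 80 are 36 genes of complex I, 4 of complex II, 8 of complex III, 15 of complex IV and 17 of ATP synthase. Ndufa4 and its relative Ndufa4l2 count under complex I here, although Ndufa4 was since found to be part of complex IV. The rows that fell short were Cox4i2 (mean 9.12 counts), Ndufs5 (0.125), Cox7b2 and Cox8c (both 0), and the lowest that passed were Cox7a1 (27.1), Ndufa4l2 (39.5) and Cox6b2 (51.8). A gene that passes such a filter through only 1 population has to differ between populations, which can apply to these low genes. The symbol rule also takes in Atp5s and Atp5sl, which are not subunits of the enzyme, and Cox7a2l, which joins complexes III and IV into supercomplexes. It leaves out a few subunits named otherwise, such as Cyc1 and Ndufab1, and the subunits encoded by mitochondrial DNA, which were not analysed here.

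Cells had been sorted on surface markers out of brain tissue of C57BL/6 mice, 20 to 22 months old: microglia, the resident macrophages, T cells, and ILC2, the innate lymphoid cells of group 2. All mice had been injected with the alarmin cytokine interleukin-33 (IL-33), 400 ng on each of 7 days, so no effect of IL-33 can be computed. Counts were used for 3 microglia, 3 T cell and 2 ILC2 libraries, numbered in column order. The labels list 3 samples of each population, and a further column is headed ILC1, which is the name of no labelled sample. It was not used, and whether it holds the remaining ILC2 sample cannot be told from the heading. Sample titles carry the numbers 1 to 3 in each population, without saying whether a number marks the same mice, and the labels name neither the surface markers nor whether mice were pooled.

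The respiratory chain passes electrons from NADH (through complex I) and succinate (through complex II) by way of ubiquinone to complex III, then by cytochrome c to complex IV, which reduces oxygen. Complexes I, III and IV pump protons across the inner mitochondrial membrane, and ATP synthase uses the returning protons to make ATP. Nearly all subunits are encoded in the nucleus, by genes of which many have short transcripts. Lymphocytes and macrophages are known to change their reliance on respiration and glycolysis with their state of activation.

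The libraries held 8376609 to 13585956 counts on genes, and libraries were scaled with the TMM method, with factors of 0.822 to 1.18. Levels are counts scaled to library size (CPM), and ± is the SD over 3, 3 and 2 libraries. Defining markers were high where the names place them. The 7 microglial markers summed to 31500 to 47600 CPM in the microglia libraries and 513 to 1220 in the lymphocyte libraries. The 7 T cell markers summed to 8410 to 11000 CPM in T cells, 20.6 to 36.9 in microglia and 696 and 859 in ILC2 1 and 2. The 8 ILC2 markers summed to 3970 to 4400 CPM in ILC2, 47.7 to 72.7 in microglia and 405 to 571 in T cells. The microglia libraries also held neutrophil transcripts, with all 5 markers of the list that the table holds detected and a sum of 71000, 12100 and 84100 CPM in the microglia libraries 1, 2 and 3, against 87.7 to 418 in the other libraries. The 5 basophil markers summed to 393 CPM in ILC2 1 and 1220 in ILC2 2. B cell markers stood at 347 and 121 CPM in ILC2 and 2.19 to 146 elsewhere. The 5 oligodendrocyte markers summed to 106 to 143 CPM in the microglia libraries, 249 to 383 in T cells, where Mog was at 0, and 548 to 817 in ILC2. No count fell on the 4 globin genes. The part of neutrophils, basophils, glia or, in the ILC2 libraries, T cells in the results below was not tested.

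Subunit transcripts took a larger part of the counts on genes in both lymphocyte populations than in microglia. The shares were 1.07% to 1.26% in the microglia libraries and 2.39% to 2.65% in T cells. In ILC2 1 and 2 they were 2.19% and 3.34%. The CPM that follow also carry the TMM factors. The 80 members together stood at 15290, 12510 and 13720 CPM in the microglia libraries 1, 2 and 3, at 24040, 24210 and 20870 CPM in T cells 1, 2 and 3, and at 18600 and 33320 CPM in ILC2 1 and 2. Every lymphocyte library lay above every microglia library, and the ILC2 libraries lay on either side of the T cells. Such a bulk level does not tell apart fewer cells of a type from less RNA per cell. The microglia library with the fewest neutrophil transcripts, microglia 2, had the lowest sum of the members. Microglia 3, with the most, lay below microglia 1. Whether neutrophil transcripts bear on these sums was not tested.

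**Figure D1:**
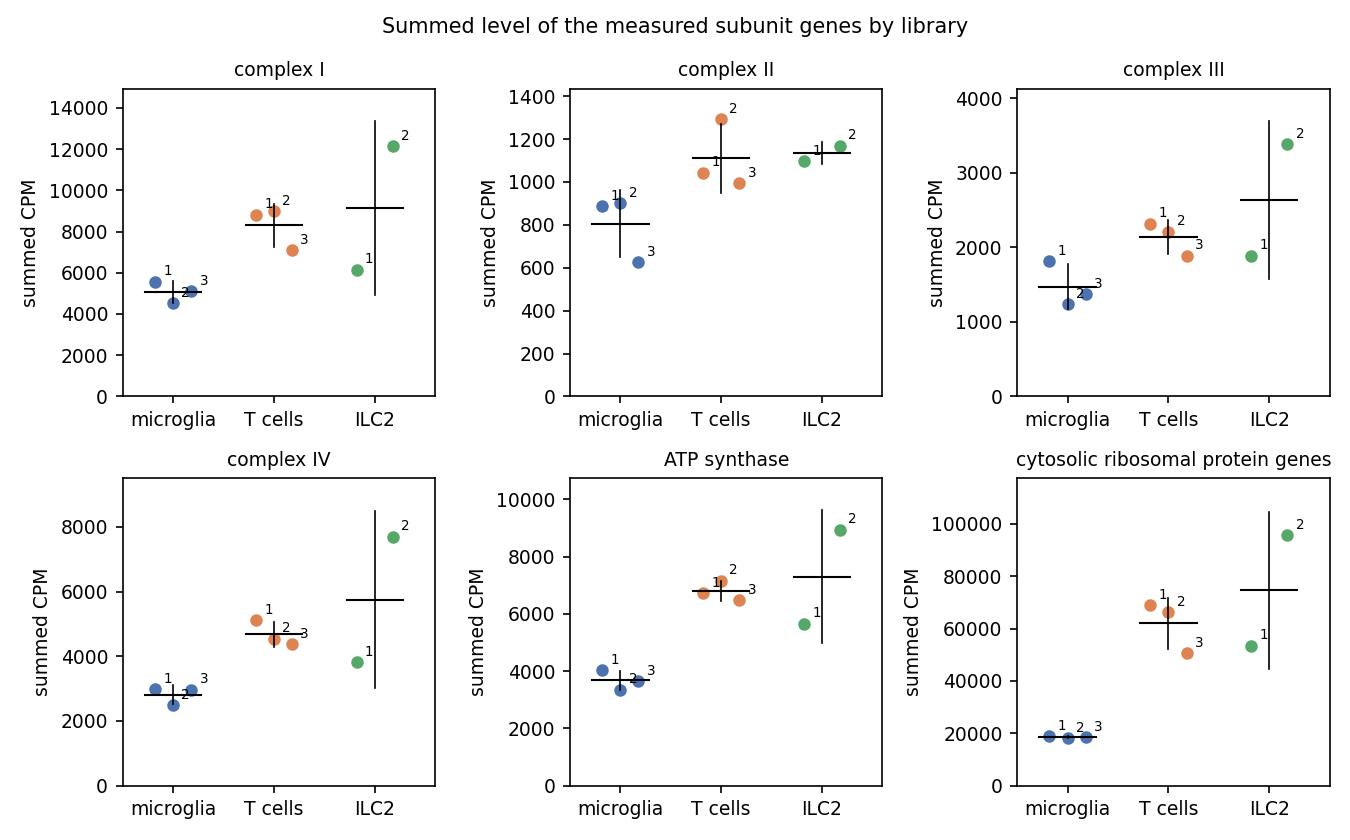
Summed CPM (vertical axes, from 0) of the members of each complex and of 90 cytosolic ribosomal protein genes in each library. Points are libraries with their number, the horizontal bar is the mean and the vertical line ± SD (n = 3, 3 and 2 for microglia, T cells and ILC2). For complexes I, III, IV and ATP synthase ILC2 2 is the highest of the 8 libraries and ILC2 1 the lowest of the lymphocyte libraries or level with it, whereas for complex II the ILC2 libraries are close together.

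By complex, the sums kept this order with unequal steps. ATP synthase genes summed to 3679 ± 339 CPM in the microglia libraries, 6798 ± 342 in T cells and 7304 ± 2320 in ILC2. Complex I genes summed to 5070 ± 518, 8309 ± 1040 and 9138 ± 4230 CPM in the same order, and complex IV genes to 2814 ± 283, 4682 ± 388 and 5752 ± 2740. Complex III genes stood at 1473 ± 304, 2138 ± 224 and 2633 ± 1060 CPM. The 4 genes of complex II, succinate dehydrogenase, were the closest between populations, at 805.1 ± 156, 1110 ± 161 and 1134 ± 51.6 CPM. These sums are descriptions, with no test.

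Gene by gene, 10 of the 80 members (12.5%) were called higher in ILC2 than in microglia and 12 (15%) were called higher in T cells than in microglia. None was called lower in either comparison. Called means a Benjamini-Hochberg adjusted p under 0.05 over all 13000 genes, by edgeR's two-sided quasi-likelihood F test on 1 fit of the 8 libraries, and a change of at least 2-fold. Over all genes, 4.99% were called higher and 4.76% lower in ILC2 than in microglia, and 5.91% higher and 7.13% lower in T cells than in microglia. Short genes were called more often. Of 581 genes with transcripts of up to 1000 nucleotides, without members and ribosomal protein genes, 62 (10.7%) were higher and 38 lower in ILC2. In T cells 63 of them (10.8%) were higher and 44 lower. At an unadjusted p under 0.05 stood 46 and 41 members (24% and 28.2% of all genes). All ILC2 libraries lay above all microglia libraries in 49 members (61.3%, against 21.9% of all genes), and all T cell libraries did so in 57 (71.2%, against 18.4%). Fold changes above 0 were seen in 76 members in ILC2 and 72 in T cells (95% and 90%, against 49% and 50.1% of all genes). The median log2 fold change of the members was 0.87 in ILC2 and 0.73 in T cells relative to microglia, where that of all genes tested was -0.01 and 0. Both comparisons use the same 3 microglia libraries, so they are given side by side and their likeness is not a result of its own.

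The counts of calls rested on single libraries. In the comparison of ILC2 with microglia the 10 calls became 0 without ILC2 2 and 33 without ILC2 1, with a median of 0.37 and 1.32. They became 3, 2 and 2 without microglia 1, 2 and 3 and 5 without T cells 2. In the comparison of T cells with microglia the 12 calls became 4, 2 and 2 without microglia 1, 2 and 3, 2 without T cells 1 and 1 without T cells 2, while the median stayed between 0.60 and 0.84. The direction of the median held in each of these fits. With total counts in place of TMM, 43 and 45 members were called higher. That scaling moves the median of all genes to 0.31 and 0.37, and relative to it the members' medians were 0.89 and 0.73, against 0.88 and 0.73 with TMM. It also moves the part of all calls that are higher from 51.2% to 66.2% in ILC2 against microglia and from 45.3% to 64.5% in T cells against microglia.

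**Figure D2:**
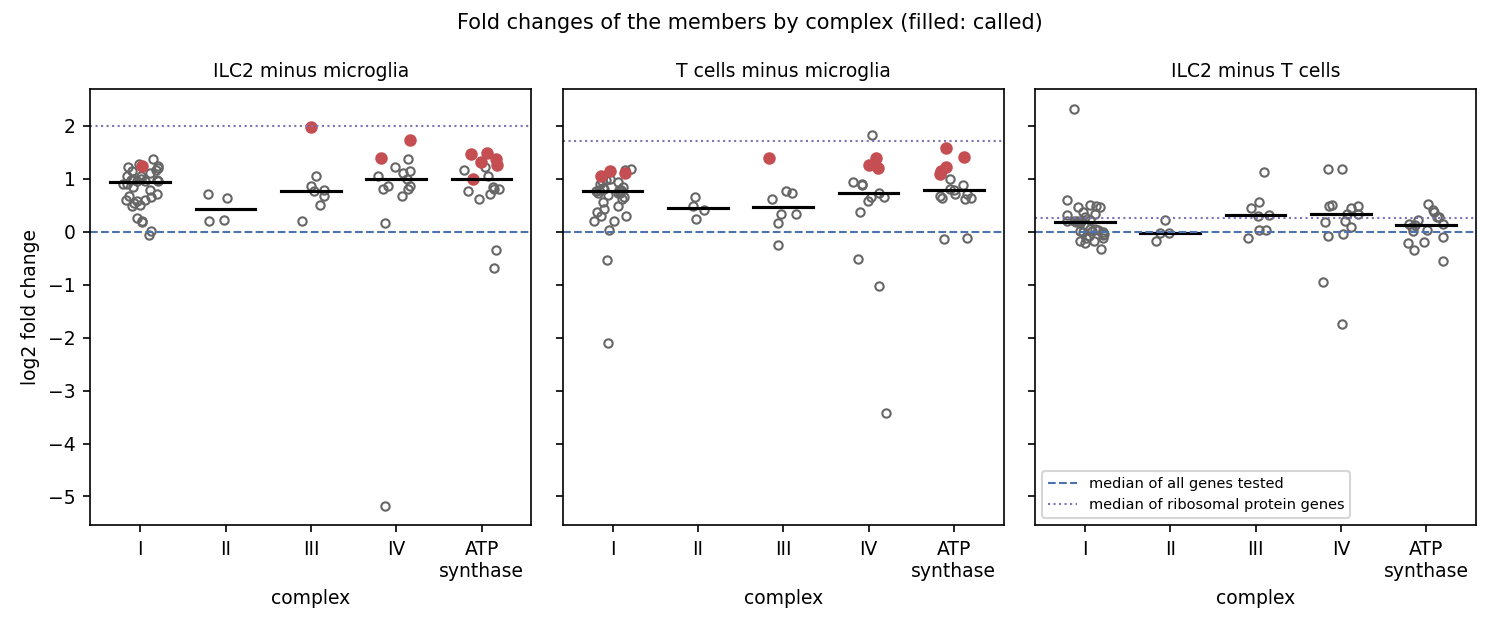
Log2 fold change (vertical axis) of each member in the 3 comparisons, grouped by complex (horizontal axis). Filled red points were called, open points were not, black bars are medians per complex, the dashed line is the median of all genes tested and the dotted line that of the ribosomal protein genes. Most members lie above 0 in both comparisons with microglia, around medians of 0.87 and 0.73, and near 0 between ILC2 and T cells, and the lowest point is Cox6a2 at -5.17.

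ATP synthase held the most calls of the complexes, 6 of 17 genes in ILC2 and 5 of 17 in T cells relative to microglia. Those are 35.3% and 29.4%, against 4.99% and 5.91% of all genes. Atp5h, subunit d of the stalk that holds the catalytic head in place, measured 193, 176 and 203 CPM in the microglia libraries, 540.3, 662 and 507 in T cells and 339.8 and 655 in ILC2. In Atp5h all lymphocyte libraries lay above all microglia libraries, which adds nothing to its calls, since the gene was picked by them. The log2 fold change was 1.58 ± 0.30 (SE) in T cells (adjusted p = 0.00724, edgeR quasi-likelihood test) and 1.38 ± 0.32 in ILC2 (adjusted p = 0.0239). The T cell call held in all 15 alternative fits (8.62e-05 to 0.0353). The ILC2 call was lost without microglia 1, 2 or 3 (adjusted p = 0.0673, 0.0794 and 0.0582, edgeR) and without ILC2 2 (0.181).

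Atp5d and Atp5e, the delta and epsilon subunits of the rotating central stalk, were both called in each comparison with microglia. Atp5d measured 215, 188 and 170.3 CPM in the microglia libraries, 460.3, 426.5 and 459 in T cells and 374 and 681 in ILC2. The T cell libraries lay close together, between the 2 ILC2 libraries. Its log2 fold change was 1.23 ± 0.28 in T cells (adjusted p = 0.0188, edgeR) and 1.47 ± 0.31 in ILC2 (0.015). Atp5e measured 159, 136 and 166 CPM in the microglia libraries, 398, 457 and 367 in T cells and 281 and 578 in ILC2, with log2 fold changes of 1.41 ± 0.31 in T cells (adjusted p = 0.0153, edgeR) and 1.48 ± 0.33 in ILC2 (0.0213). The T cell call of Atp5d was lost without microglia 2 (adjusted p = 0.0623, edgeR), microglia 3 (0.0649), T cells 1 (0.0528) or T cells 2 (0.0592), and that of Atp5e without microglia 2 (0.0601) or T cells 2 (0.0638). The ILC2 call of Atp5d was lost without microglia 2 (0.0514), microglia 3 (0.0517) or ILC2 2 (0.11), and that of Atp5e without microglia 1, 2 or 3 (0.0586, 0.0733 and 0.0517) or ILC2 2 (0.168).

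In complex III, Uqcrh, the hinge protein that contacts cytochrome c1, had the largest change of the called members in ILC2. It measured 174, 137 and 110.2 CPM in the microglia libraries, 389, 408 and 316 in T cells and 319.5 and 780 in ILC2, where the second library stood far above the first. The log2 fold change was 1.97 ± 0.39 in ILC2 (adjusted p = 0.0116, edgeR) and 1.40 ± 0.36 in T cells (0.0303). The ILC2 call was lost only without ILC2 2 (adjusted p = 0.102, edgeR) among the 15 alternatives, and the T cell call without microglia 2 (0.0895), microglia 3 (0.0981), T cells 1 (0.0764) or T cells 2 (0.103).

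In complex IV, Cox7a2l and Cox6c were called in each comparison with microglia. Cox7a2l, the supercomplex factor, measured 44.5, 74.7 and 58.0 CPM in the microglia libraries, 145, 163 and 156 in T cells and 143 and 249.8 in ILC2, with log2 fold changes of 1.39 ± 0.33 in T cells (adjusted p = 0.0236, edgeR) and 1.73 ± 0.36 in ILC2 (0.0151). Cox6c, a small subunit in the membrane, measured 256, 251 and 231 CPM in the microglia libraries, 618, 596 and 484 in T cells and 404 and 897 in ILC2, with 1.20 ± 0.31 in T cells (0.033) and 1.40 ± 0.34 in ILC2 (0.0302). In both genes the lymphocyte populations did not overlap with microglia, which adds nothing to the calls by which these genes were picked. The ILC2 call of Cox7a2l was lost without ILC2 2 (adjusted p = 0.124, edgeR), and its T cell call without microglia 1 (0.0746), microglia 3 (0.0677), T cells 1 (0.0528) or T cells 2 (0.0782). Cox6c lost its ILC2 call without microglia 1, 2 or 3 (0.076, 0.082 and 0.0875), T cells 2 (0.0576) or ILC2 2 (0.244), and its T cell call without any of 5 libraries (0.0824 to 0.11), T cells 3 being the exception of the 6 microglia and T cell libraries. It was also lost in ILC2 when those 2 populations were fitted alone, and in T cells with DESeq2 size factors.

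Of the 36 complex I genes 1 was called in ILC2 (2.78%, against 4.99% of all genes) and 3 in T cells (8.33%, against 5.91%). For complex I these shares lie near or below those of all genes. Ndufa7, an accessory subunit of its peripheral arm, measured 175, 186 and 166 CPM in the microglia libraries, 387, 418 and 297 in T cells and 281 and 557 in ILC2. It rose by 1.06 ± 0.31 on the log2 scale in T cells (adjusted p = 0.0481, edgeR) and by 1.25 ± 0.33 in ILC2 (0.0433). Both calls lie close to the threshold. Leaving out any of the 6 microglia and T cell libraries ended both (0.0507 to 0.169), as did leaving out ILC2 2 for the ILC2 call (0.316). Both were also lost with DESeq2 size factors and with no filter on low counts, the ILC2 call when those 2 populations were fitted alone, and the T cell call with DESeq2.

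**Figure D3:**
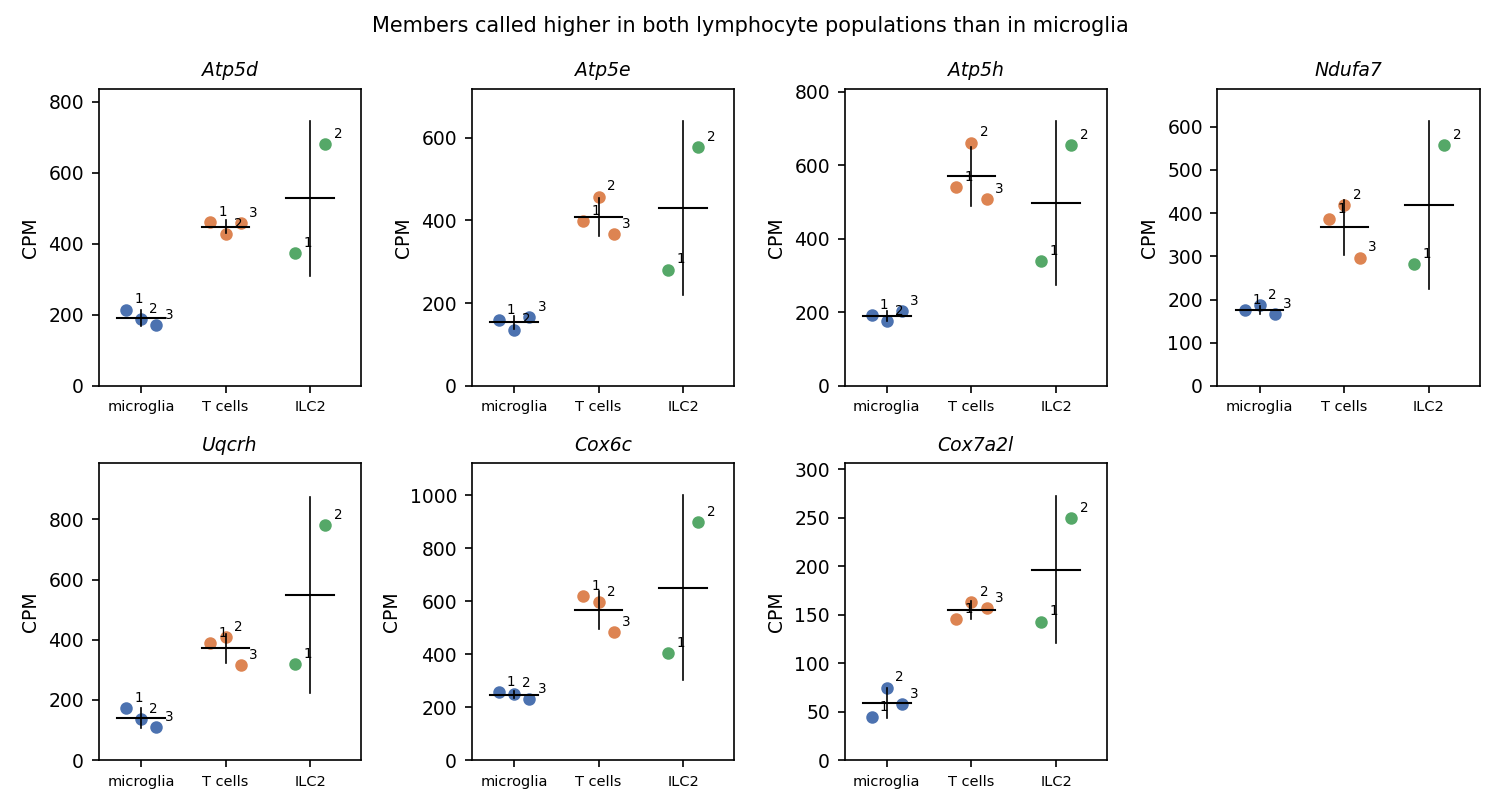
CPM (vertical axes, from 0) by library of the members that were called higher in both lymphocyte populations, each against microglia. Points are numbered libraries, horizontal bars are means and vertical lines ± SD (n = 3, 3 and 2). In each gene all microglia libraries lie below all lymphocyte libraries, which adds nothing to the calls, since the genes were picked by them. ILC2 1 and ILC2 2 lie apart, as for Uqcrh at 319.5 and 780 CPM.

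In build mm10 (GRCm38; annotation GENCODE vM21) these genes lie apart on the genome and are all annotated as protein-coding: Uqcrh on chromosome 4 from 116066965 to 116075071, Atp5d on chromosome 10 from 80138632 to 80145818, Atp5e on chromosome 2 from 174461072 to 174464105, Atp5h on chromosome 11 from 115415689 to 115419962, Cox6c on chromosome 15 from 35925886 to 35938246, and on chromosome 17 Cox7a2l from 83501918 to 83517330 and Ndufa7 from 33824572 to 33838317. Of the stretches of 75 bases (the read length) in their coding transcripts, 28.5% in Atp5h, 13.4% in Cox7a2l, 6.85% in Cox6c and 2.56% in Uqcrh also occur in transcripts of another gene, and none in Atp5d, Atp5e and Ndufa7. Whether reads from such stretches were counted is not given, so values of genes with many of them are uncertain. That holds most for Atp5g2 (86.9% shared) and Atp5l (63.4%), and 9 members share over 20%. Among the 54 members that share none, 5 (9.26%) were called higher in ILC2 and 6 (11.1%) in T cells than in microglia. Over all genes these shares were 4.99% and 5.91%. The medians of the 54 members were 0.81 and 0.67.

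Promoters of respiratory chain genes are known for sites of the factors NRF1 and GABPA (an ETS factor), which is why stretches holding their core letters are shown for members. In RefSeq promoter windows of build GRCm38.p6, 250 bases before to 50 after a start site, 73 windows matched 67 of the 80 members. The letters GCGCATGCGC, the palindromic core of NRF1 sites, occurred in 5 of the 73 windows (6.85%), against 0.971% of all 32851 windows in the table. The ETS core CCGGAAG, searched on both strands, occurred in 16 (21.9%), against 8.86% of all windows. Of the genes called in each comparison with microglia, Cox6c had no window, and Atp5d, Cox7a2l and Ndufa7 lacked the ETS core. Atp5e, Atp5h and Uqcrh had the ETS core. The 120 bases before the start site follow for these 3 and, for the NRF1 letters, for Atp5k and Ndufa11, read 5′ to 3′ on the strand of the gene, with the core letters in capitals (CTTCCGG being CCGGAAG on the other strand). A match describes the letters only.
Atp5e, chr2:174464102-174464221, minus strand: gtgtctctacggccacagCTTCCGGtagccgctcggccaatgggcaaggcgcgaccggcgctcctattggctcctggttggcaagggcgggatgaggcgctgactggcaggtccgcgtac
Atp5h, chr11:115419920-115420039, minus strand: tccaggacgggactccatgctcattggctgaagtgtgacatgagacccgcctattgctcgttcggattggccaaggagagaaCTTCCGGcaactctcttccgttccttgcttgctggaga
Uqcrh, chr4:116075071-116075190, minus strand: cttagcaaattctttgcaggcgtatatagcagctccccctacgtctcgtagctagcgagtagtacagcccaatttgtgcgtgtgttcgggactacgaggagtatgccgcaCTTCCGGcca
Atp5k, chr5:108434400-108434519, minus strand: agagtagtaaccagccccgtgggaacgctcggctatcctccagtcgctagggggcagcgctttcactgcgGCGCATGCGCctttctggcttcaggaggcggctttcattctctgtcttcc
Ndufa11, chr17:56717642-56717761, plus strand: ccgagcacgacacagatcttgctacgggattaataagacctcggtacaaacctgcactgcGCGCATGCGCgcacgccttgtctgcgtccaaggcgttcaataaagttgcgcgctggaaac

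The remaining calls were each made in 1 of the 2 comparisons with microglia, and the difference between ILC2 and T cells was called in none of them. In ILC2 these were Atp5g3, a gene for the ring subunit c (log2 fold change 1.32 ± 0.33, adjusted p = 0.0357, edgeR), Atp5o, the subunit that confers sensitivity to oligomycin (1.26 ± 0.34, 0.0446), and Atp5c1, the gamma subunit of the central stalk (1.00 ± 0.26, 0.0423). In T cells the same genes had 0.80 ± 0.31 (0.12), 0.99 ± 0.31 (0.0646) and 0.62 ± 0.24 (0.124). In T cells the further calls were Atp5g1, another gene for subunit c (1.14 ± 0.31, 0.0369), Atp5j2, a membrane subunit (1.09 ± 0.31, 0.0497), Cox7b of complex IV (1.26 ± 0.32, 0.0286), and Ndufb7 (1.15 ± 0.32, 0.0432) and Ndufa13 (1.1 ± 0.31, 0.0474) of complex I. In ILC2 those had 0.80 ± 0.33, 1.22 ± 0.34, 1.22 ± 0.34, 1.15 ± 0.35 and 0.99 ± 0.34, with adjusted p from 0.0535 to 0.18 (edgeR). Ndufa3 and Ndufb9 of complex I fell just short in ILC2, both at 0.0501, with 1.37 ± 0.38 and 1.21 ± 0.33.

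All of these single calls depended on at least 5 libraries. The ILC2 calls of Atp5c1 and Atp5o were lost without any microglia or T cell library (adjusted p = 0.0526 to 0.123, edgeR) and without ILC2 2 (0.211 and 0.311), and that of Atp5g3 without microglia 1, 2 or 3 (0.0605, 0.11 and 0.0935), T cells 2 (0.0679) or ILC2 2 (0.272). The T cell calls of Atp5g1, Cox7b and Ndufb7 were lost without microglia 1, 2 or 3 or T cells 1 or 2 (0.056 to 0.13), and those of Atp5j2 and Ndufa13 without any microglia or T cell library (0.0578 to 0.162). DESeq2 size factors and the fit with no filter also ended all of them except those of Atp5g3 and Cox7b. The 3 ILC2 calls were lost when the 2 populations were fitted alone, those of Atp5c1, Atp5j2 and Ndufa13 with DESeq2, and that of Atp5c1 with limma-voom.

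The catalytic core subunits described here were not called. In complex I core subunits that carry flavin and iron-sulfur clusters had log2 fold changes in ILC2 and T cells, relative to microglia, of 0.66 and 0.61 for Ndufv1, 0.95 and 0.74 for Ndufv2, 0.18 and 0.21 for Ndufs1, 0.59 and 0.37 for Ndufs7 and 0.59 and 0.43 for Ndufs8. Ndufs3 exceeded 1 in both, at 1.23 and 1.19 (adjusted p = 0.0733 and 0.0505, edgeR). None of these was called.

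The catalytic alpha and beta subunits of ATP synthase differed by less than 2-fold. Atp5b measured 1082, 689 and 717 CPM in the microglia libraries, 1293, 1503 and 1497 in T cells and 1264 and 1618 in ILC2. Atp5a1 was at 514, 577 and 709 CPM, 934, 995 and 959, and 880.3 and 1081. In both genes no microglia library reached a lymphocyte library, yet the log2 fold changes of 0.80 and 0.79 for Atp5b and 0.71 and 0.68 for Atp5a1 in ILC2 and T cells were not called (adjusted p = 0.0769 to 0.121, edgeR).

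In complex III the core proteins Uqcrc1 and Uqcrc2 had log2 fold changes of 0.20 and 0.67 in ILC2 and 0.17 and 0.34 in T cells relative to microglia. Uqcrfs1, the Rieske iron-sulfur protein, measured 173, 82.0 and 99.9 CPM in the microglia libraries, 118, 39.5 and 139 in T cells and 173 and 257 in ILC2. The low value of T cells 2 sets it apart within its population. In complex IV, Cox4i1, the regulatory subunit 4 of most tissues, was at 593 ± 52.8 CPM in the microglia libraries, 771 ± 94.1 in T cells and 1043 ± 465 in ILC2 (0.38 and 0.81, not called). Cox5b had 0.90 in T cells and 1.1 in ILC2. Cox5a was at 358, 126 and 389.9 CPM in T cells, so that T cells 2 lay within the microglia range of 105 to 192, and at 219 and 604 in ILC2.

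Complex II, which also belongs to the tricarboxylic acid cycle, had the smallest median differences. Sdha, the flavoprotein, measured 304, 261 and 78.4 CPM in the microglia libraries, 232, 416 and 256 in T cells and 433 and 276 in ILC2, and microglia 3 stood far below the other libraries. Sdhb, the iron-sulfur subunit, was at 224, 294 and 202 CPM, 409.8, 393 and 334, and 281 and 462 (log2 fold changes of 0.66 in T cells and 0.63 in ILC2). The membrane anchors Sdhc and Sdhd had 0.41 and 0.24 in T cells and 0.23 and 0.21 in ILC2. None of the 4 was called, and their medians were 0.45 and 0.43, where complex I had 0.77 and 0.93. Complex III had 0.48 in T cells, close to complex II, and 0.78 in ILC2. The 4 transcripts of complex II are 1142 to 3171 nucleotides long. All members over 1000 nucleotides had medians of 0.66 in T cells and 0.76 in ILC2. Whether complex II differs from complex I or complex III, or whether length has a part in it, was not tested.

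A few members went the other way. Cox6a2, the form of subunit 6a known from heart and skeletal muscle, measured 33.1, 45.6 and 55.5 CPM in the microglia libraries (328, 462 and 533 counts), 1.41, 0.0689 and 11.1 in T cells (13, 1 and 111 counts) and 0 and 2.46 in ILC2 (0 and 31 counts). Every microglia library lay above every lymphocyte library. The fitted log2 fold changes were -5.17 ± 2.15 in ILC2 and -3.42 ± 1.65 in T cells, and neither was called (adjusted p = 0.177 and 0.209, edgeR). Both were called with limma-voom and with the newer quasi-likelihood method of edgeR, and the ILC2 difference also with DESeq2. Over all alternatives the adjusted p ran from 0.00408 to 0.377 for ILC2 and from 0.00463 to 0.372 for T cells. The ILC2 value was -11.92 without ILC2 2, where no count is left in ILC2 and a small prior count sets the size, and the T cell value was -5.87 without T cells 3. Its general counterpart Cox6a1 was at 410 ± 46.35 CPM in the microglia libraries, 648 ± 63.1 in T cells and 812 ± 310.1 in ILC2. Per kilobase of transcript, Cox6a2 made up 6.32% to 9.56% of the 6a level in microglia, 0.00968% to 1.46% in T cells and 0 to 0.2% in ILC2. Microglia 2, with the lowest neutrophil sum, held the middle value of Cox6a2, and whether neutrophils bear on this gene was not tested.

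**Figure D4:**
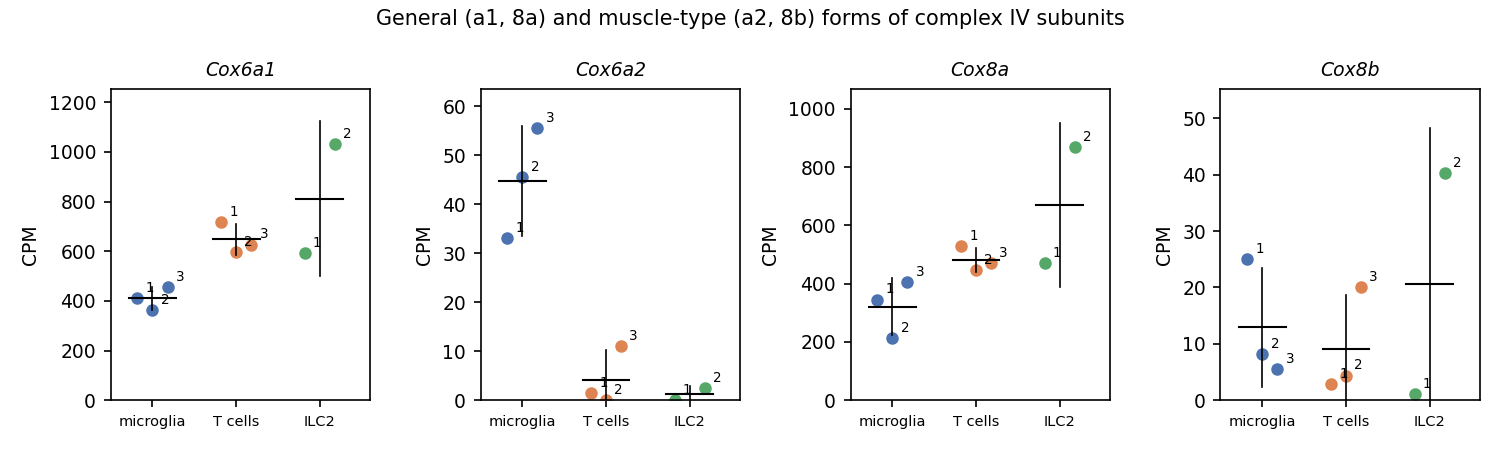
CPM (vertical axes, from 0) by library of the general forms Cox6a1 and Cox8a and the muscle-type forms Cox6a2 and Cox8b of 2 complex IV subunits. Points are numbered libraries, bars are means and lines ± SD over 3, 3 and 2 libraries, with the lower ends of some lines beyond the axis. Cox6a2 is highest in the microglia libraries (33.1 to 55.5 CPM), whereas Cox8b spreads from 1.05 to 40.25 CPM within ILC2.

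The other alternative forms were low and uneven. Cox8b, the muscle-type form of subunit 8, measured 25.1, 8.19 and 5.52 CPM in the microglia libraries, 2.82, 4.34 and 20.1 in T cells and 1.05 and 40.25 in ILC2, so that the libraries of a population differed more than the populations. The general form Cox8a had log2 fold changes of 1.06 in ILC2 and 0.58 in T cells. Cox7a1, the muscle-type form of subunit 7a, stood at 0 to 6.47 CPM and Cox6b2, the testis form of 6b, at 1.30 to 9.80 CPM in all libraries. Their general forms Cox7a2 and Cox6b1 stood at 174 to 667 and 331 to 812.5 CPM, 97.1% or more and 97.3% or more of the subunit per kilobase. Ndufa4l2, a relative of Ndufa4 known to be induced by hypoxia, was at 10.1 CPM or less in every library, while Ndufa4, since found to be part of complex IV, had 0.90 in T cells and 0.58 in ILC2. Ndufc2, an accessory subunit of complex I, measured 214, 241 and 248 CPM in the microglia libraries, 156, 181 and 151 in T cells and 143 and 304 in ILC2. All T cell libraries lay below all microglia libraries, with a log2 fold change of -0.53 ± 0.32 that was not called (adjusted p = 0.306, edgeR). Cox6a2 and Ndufc2 were the 2 members (2.5%, against 18.7% of all genes) in which T cells lay wholly below microglia, and Cox6a2 was the 1 member (1.25%, against 21.1%) in which ILC2 did.

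Between the lymphocyte populations no member was called in either direction (0 of 80, against 0.431% of all genes higher and 0.492% lower in ILC2), and none had an unadjusted p under 0.05 (against 9.39% of all genes). DESeq2, limma-voom and the other fits also called none. The median log2 fold change of ILC2 relative to T cells was 0.18, with 57 of 80 above 0 (71.2%, against 48.8% of all genes), and it was -0.38 without ILC2 2, 0.50 without ILC2 1 and 0.04 without T cells 3. The lowest p belonged to Uqcrfs1, at 1.12 ± 0.53 (adjusted p = 0.571, edgeR). Next came Atp5g3 (0.53 ± 0.34), Uqcrh (0.57 ± 0.39), Atp5c1 (0.38 ± 0.27), Ndufb9 (0.47 ± 0.34), Cox4i1 (0.44 ± 0.31), Cox7a2 (0.49 ± 0.36) and Ndufa8 (0.50 ± 0.37), then Cox8a (0.48 ± 0.36), Ndufc2 (0.46 ± 0.35), Ndufs6 (0.49 ± 0.37) and Ndufc1 (0.59 ± 0.48), with adjusted p from 0.719 to 0.854. All ILC2 libraries lay above all T cell libraries in Uqcrc2 and Uqcrfs1 (2.5% of the members, against 13.4% of all genes), and below them in Cox7a1 (1.25%, against 11.8%).

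The 2 ILC2 libraries differed in most members. Of the 80 members 76 (95%) were higher in ILC2 2 than in ILC2 1, with a median log2 ratio of 0.98, where all genes tested had a median of 0. Against the range of the 3 T cell libraries, ILC2 1 lay below it in 52 members and above it in 5, and ILC2 2 lay above it in 64 and below it in 3. Of all genes, 23.2% lay below that range and 27.1% above it in ILC2 1, and 23.2% and 28.5% in ILC2 2. No pair of libraries of the other populations differed so much, with medians between -0.28 and 0.09. The median coefficient of variation of the members was 16.7% in microglia and 14.1% in T cells, below that of all genes (50.7% and 49.7%), but 46.9% in ILC2, above that of all genes (41.8%). Most ILC2 means of members given here therefore lie between unlike values.

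The shift between the ILC2 libraries was not the same in all complexes, and it was smaller in longer transcripts. The median log2 ratio of ILC2 2 to ILC2 1 was 1.00 for complex I, 1.05 for complex III, 1.07 for complex IV, 0.76 for ATP synthase and 0.01 for complex II, whose Sdha and Sdhc were lower in ILC2 2 (-0.65 and -0.54). It was 1.04 in the 46 members with coding transcripts of up to 1000 nucleotides and 0.63 in the 34 with longer ones. The longest members by annotation, Atp5g1 (4715 nucleotides) and Ndufb2 (4371), had log2 ratios of 0.76 and 1.17. Short transcripts also had the larger shift outside mitochondria. The median was 0.84 for 90 cytosolic ribosomal protein genes, 0.77 for 581 other genes of up to 1000 nucleotides and -0.01 for 11618 longer ones. The basophil markers stood at 393 CPM in ILC2 1 and 1220 in ILC2 2. The part that transcript length, RNA quality or other cells have in this difference was not tested.

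**Figure D5:**
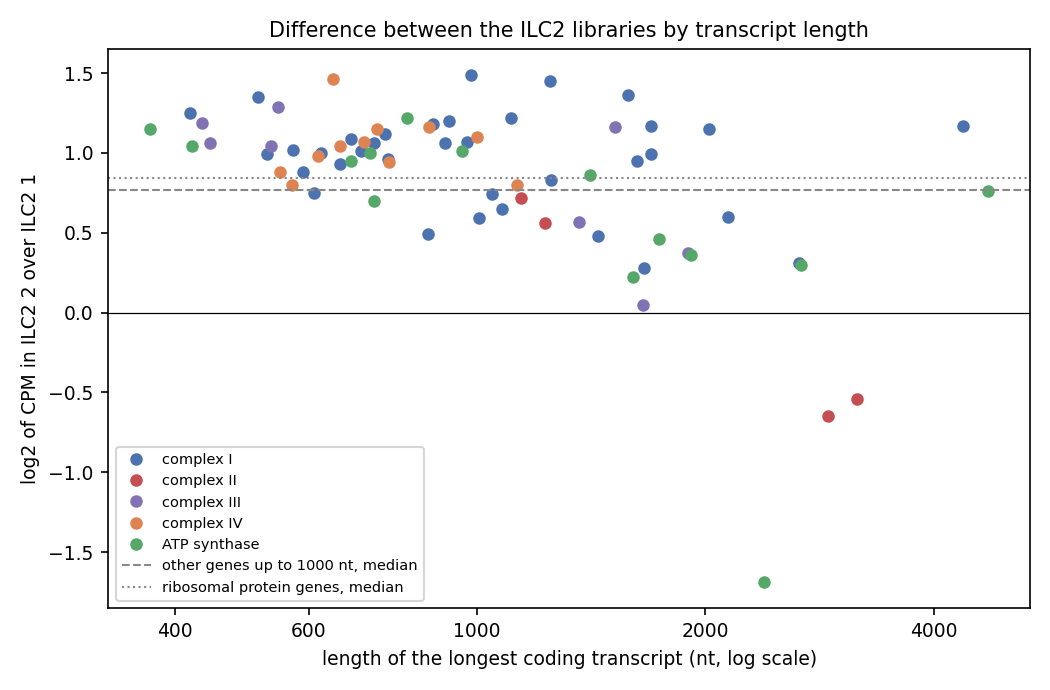
Log2 ratio of CPM in ILC2 2 over ILC2 1 (vertical axis) against the length of the longest coding transcript (horizontal axis, log scale) for the 72 members with at least 10 CPM in both libraries and an unambiguous annotation, coloured by complex. Dashed and dotted lines are the medians of other genes of up to 1000 nucleotides (0.77) and of ribosomal protein genes (0.84). Short transcripts of complexes I, III and IV lie near 1, and Sdha and Sdhc of complex II, among the longest, lie below 0, as does Atp5sl at -1.69. The longest, Atp5g1 and Ndufb2, lie at 0.76 and 1.17.

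Differences from microglia were also larger in short transcripts. The members' transcripts had a median length of 891.5 nucleotides, against 3064 for all genes tested with a length. Relative to microglia, members of up to 1000 nucleotides had a median log2 fold change of 0.97 in ILC2 and 0.77 in T cells, and longer members 0.76 and 0.66. Other genes of up to 1000 nucleotides had medians of 0.60 and 0.40, below both groups of members, and longer genes -0.06 and -0.02. In ILC2 15.2% of the short and 8.82% of the longer members were called higher, against 10.7% and 4.12% of the other genes. In T cells these shares were 15.2% and 14.7%, against 10.8% and 5.11%. The cytosolic ribosomal protein genes, short and abundant as well, had larger changes than the members: 72 of 90 were called higher in each comparison (and 0 and 3 lower), with medians of 2.00 and 1.71. They summed to 18170 to 18880 CPM in the microglia libraries, 50790 to 69030 in T cells and 53490 and 95720 in ILC2. Of the members, 52 (65%) exceeded all microglia libraries in ILC2 1 and 71 (88.8%) in ILC2 2, and 59 to 69 did so in the T cell libraries, against 31.5% to 34.2% of all genes over these 5 libraries.

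Of 47 tested assembly factors, which build the complexes without being part of them, 4 were called higher in ILC2 and 3 in T cells than in microglia and none lower (8.51% and 6.38%, near the 4.99% and 5.91% of all genes), with medians of 0.79 and 0.60. Cox10, which makes the heme of complex IV, measured 21.2, 33.9 and 26.0 CPM in the microglia libraries, 105, 51.9 and 52.6 in T cells and 135 and 205 in ILC2, where it rose by 2.65 ± 0.46 (adjusted p = 0.00561, edgeR). The call held in all 15 alternatives (1.98e-05 to 0.0481). Cox20, a chaperone of a complex IV subunit, rose by 1.48 ± 0.37 in ILC2 (0.0357) and 1.41 ± 0.34 in T cells (0.0252). The copper chaperone Cox17 rose by 1.46 ± 0.32 in T cells (0.0153). Surf1 and Cox14 were the other calls in ILC2 and 1810043H04Rik (Ndufaf8) that in T cells. Cox10 differed between ILC2 and T cells by 1.28 ± 0.45, which was not called (0.365). The ILC2 calls of Cox14, Cox20 and Surf1 were lost without ILC2 2 (adjusted p = 0.297, 0.238 and 0.296, edgeR) and without 4 to 5 of the 6 other libraries (0.0517 to 0.126). The T cell calls of Cox17, Cox20 and 1810043H04Rik were lost without 4 to 6 of the microglia and T cell libraries, among them microglia 1 and 2 and T cells 1 and 2 (0.0513 to 0.102).

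Of 17 genes of pyruvate dehydrogenase and the tricarboxylic acid cycle, 2 were called higher in T cells (11.8%, against 5.91% of all genes) and none in ILC2 (against 4.99%), with medians of 0.35 and 0.47. These were Idh3a, a subunit of isocitrate dehydrogenase, at 80.5, 70.9 and 72.4 CPM in the microglia libraries, 156, 239 and 170 in T cells and 119 and 136 in ILC2 (1.33 ± 0.29, adjusted p = 0.0153, edgeR), and Cs, citrate synthase, with 1.20 ± 0.32 (0.0341). Of 22 electron carriers, ubiquinone synthesis genes and carriers of adenine nucleotides and phosphate, 1 was called (4.55% in ILC2, against 4.99% of all genes): Slc25a4, an exchanger of ADP and ATP, at 157, 157 and 151.5 CPM in the microglia libraries and 297 and 345 in ILC2 (1.05 ± 0.26, 0.0315). Cycs, cytochrome c itself, had 1.26 in both lymphocyte populations relative to microglia and was not called (0.0931 in ILC2 and 0.0587 in T cells). Of 17 tested regulators of mitochondrial biogenesis and DNA upkeep none was called, with medians of 0.30 in ILC2 and 0 in T cells. Tfam, which packages mitochondrial DNA, had 0.91 ± 0.51 and 1.22 ± 0.47. Nrf1 and Gabpa are the factors whose core letters were searched in the promoters. They had 0.95 ± 0.6 and 0.48 ± 0.86 in ILC2 and 0.57 ± 0.55 and 0.33 ± 0.78 in T cells. Gabpb1 of the same list went the other way, at -1.03 ± 0.65 in ILC2 and -0.2 ± 0.57 in T cells. Of these 17 genes 13 lay above 0 in ILC2 and 9 in T cells. The T cell call of Idh3a was lost without microglia 2 (adjusted p = 0.0534, edgeR) or T cells 2 (0.0834), and that of Cs without microglia 1 (0.103), microglia 3 (0.0897), T cells 1 (0.0615) or T cells 2 (0.15). Slc25a4 lost its ILC2 call without microglia 1, 2 or 3 (0.0766, 0.0815 and 0.079), T cells 2 (0.0668) or ILC2 2 (0.127). Between ILC2 and T cells no gene of these 4 lists was called.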

How the data were processed

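Libraries were read as single-end reads of 75 bp, per the labels. The deposited table holds whole-number counts per gene, although its title calls them normalized. The submitters' processing notes name build mm10, the aligner STAR 2.5.3a, Cufflinks 2.0 and DESeq2 1.1, with bcl2fastq 2.20.0.422 and FastQC 1.0.0. How reads were counted, and whether by strand, is not given in the sources used here. Rows for reads assigned to no feature and for ambiguous reads were left out, as were 27 rows with dates for symbols. Reads assigned to no feature made up 53.8% to 61% of a library's counts over all rows, and ambiguous reads 0.338% to 1.23%. Where the reads assigned to no feature lie is not given. A further column of values (1), headed ILC1, matched no sample label and was not used, so ILC2 rests on 2 libraries. Column headings show the population and not the sample, so no libraries were paired.

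Counts were fitted with edgeR 4.0.16 (TMM, quasi-likelihood F test) in R 4.3.3 over 13000 genes with a mean of at least 10 counts. SE is the log2 fold change over the square root of F. Since separate animals are not stated, p-values reflect the spread of libraries alone, which may be technical. Alternatives used limma 3.58.1 and DESeq2 1.42.0. The members and lists were chosen with earlier results of these data known. Named genes are up to 12 members per direction by size of change among those called (filled to 12 by lowest p), core subunits and alternative forms. Ndufc2, Atp5k, Ndufa11 and the genes named from other lists fall outside that rule and were chosen after their values were seen. Of the listed genes 2 were not matched (Coa1 and Ly6g). Lengths come from the longest basic coding transcript in GENCODE vM21. That annotation holds 2 genes named Atp5o, so no position is given for it.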

Additional observations from a re-analysis of the deposited data

How the results depend on the processing

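No paired analysis was possible because the column headings carry no replicate numbers, although the sample titles number 1 to 3 in each population. In the comparisons with microglia the members' median stayed above 0 in each alternative. With DESeq2 size factors 6 members were called higher in T cells, and with no filter 7. With total counts 43 were called higher in ILC2 and 45 in T cells, with a T cell median of 1.1. DESeq2, limma-voom and the newer quasi-likelihood method called 16, 17 and 21 members higher in ILC2 and 1 lower each, and limma-voom and the newer method 1 lower in T cells. Fitted to the 2 groups alone, 5 were higher in ILC2. The cause of these moves was not tested. Over all genes, DESeq2 called 526 (ILC2 against T cells), 2329 (ILC2 against microglia) and 2701 (T cells against microglia), limma-voom 292 and 2085 in the first pair of comparisons, the newer method 321, 2250 and 2724, and the fit with no filter 235 in the first, where the main counts were 120, 1268 and 1695. Leaving out 1 library at a time gave 62 to 121, 711 to 1270 and 1186 to 1762 genes, 0 to 33 members higher in ILC2 and 1 to 17 in T cells than in microglia, and medians of -0.38 to 0.50, 0.37 to 1.32 and 0.60 to 0.84. Where that leaves ILC2 with 1 library, it is assumed to vary like the others.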
